A study of Homo sapiens with 21 samples.

Results

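Expression of 9 genes that epithelial cells use to build their surface was followed through a TGFβ time course, namely EPCAM, ST14, PRSS8, SPINT1, SPINT2, MUC1, AP1M2, RAB25 and CDS1. They were taken by symbol, and all 9 were found once each among the 23201 gene symbols in the table and passed the filter on low values with 13343 genes. The first 6 encode surface glycoproteins, membrane-bound serine proteases and their inhibitors, whereas AP1M2, RAB25 and CDS1 encode intracellular proteins of sorting and lipid synthesis. Cells were HMLE, an established human mammary epithelial line immortalized with telomerase and the early region of SV40. RNA was collected from untreated cells (d0) and on days 1, 4, 7, 10, 15 and 20 of TGFβ, a cytokine that drives epithelial-to-mesenchymal transition (EMT), with 3 libraries at each of 7 timepoints. The d0 libraries were the only untreated ones, so TGFβ and time in culture cannot be told apart. The dose of TGFβ was not given in the sources used here, and all libraries came from 1 cell line. Library depth, as reads recovered from the deposited values and summed over the gene symbols, was between 18847917 and 22667754.

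EpCAM is an adhesion molecule of simple epithelia. Matriptase, the product of ST14, and prostasin, the product of PRSS8, are membrane-anchored trypsin-like proteases that activate one another and act on epithelial sodium channels, and the Kunitz-type inhibitors HAI-1 (SPINT1) and HAI-2 (SPINT2) hold them in check. MUC1 is a transmembrane mucin of the apical face. AP1M2 encodes the μ1B subunit, the epithelial version of the AP-1 clathrin adaptor that sends cargo to the basolateral membrane, RAB25 is the epithelial member of the RAB11 family of recycling GTPases, and CDS1 makes CDP-diacylglycerol, the precursor of phosphatidylinositol. Repressors of epithelial genes in EMT, such as the ZEB and SNAIL factors, recognize E-box sequences in promoters.

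Promoter sequence is shown because these repressors act through E-boxes. The bases upstream of the start were taken from RefSeq on GRCh38.p14, a different build from the hg19 of the deposited data. The table held AP1M2, CDS1, MUC1, RAB25 and SPINT1, and did not give EPCAM, ST14, PRSS8 or SPINT2. For each gene 1 start is shown, with the 90 bases before it from 5′ to 3′ on the gene's strand and the E-box CACCTG, or CAGGTG where it lies on the other strand, in capitals.
AP1M2, chr19:10587313-10587402, minus strand: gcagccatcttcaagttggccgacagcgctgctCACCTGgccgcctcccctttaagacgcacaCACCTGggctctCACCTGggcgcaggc
RAB25, chr1:156061070-156061159, plus strand: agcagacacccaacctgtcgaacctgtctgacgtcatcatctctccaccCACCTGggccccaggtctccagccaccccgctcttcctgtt
CDS1, chr4:84583037-84583126, plus strand: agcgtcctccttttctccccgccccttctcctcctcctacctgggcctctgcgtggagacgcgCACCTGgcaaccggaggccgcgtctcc
MUC1, chr1:155192910-155192999, minus strand: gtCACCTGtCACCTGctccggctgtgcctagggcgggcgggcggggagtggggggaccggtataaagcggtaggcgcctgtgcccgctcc
SPINT1, chr15:40844387-40844476, plus strand: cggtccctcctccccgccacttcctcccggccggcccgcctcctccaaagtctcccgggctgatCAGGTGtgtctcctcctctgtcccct

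AP1M2 carried 3 matches, whose first bases lay 57, 27 and 15 bases before the start. MUC1 carried 2 within 90 bases, RAB25 had 1 here and 1 more at 37 bases after its start, and CDS1 and SPINT1 had 1 each. In windows of 300 bases, from 250 before to 50 after the start, all 5 genes in the table held the motif at 1 start or more. Over all its genes, 20.6% of 35116 windows and 24.1% of 27305 genes held it on either strand. The other start of SPINT1 had no match in its window. The sequence AACCNGTT, bound by grainyhead-like factors, was in 1.73% of windows and in 0 of the 5 genes on either strand. A match to one of these motifs cannot overlap a match to the other, and a match describes the sequence only.

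The libraries first had to be checked against their label. Of 6 basal mammary markers KRT5 was the most abundant, with a mean normalised read count of 224349 at d0, and the 6 summed to 324710 ± 10108 (SD, n = 3). Of 6 luminal markers PGR, KIT and ELF5 had at most 3 reads in every library, which is called the floor here, and the sum was 327 ± 45.4 at d0 with GATA3 as its largest part. PTPRC and CD3E of immune cells and CDH5 of endothelial cells were also at the floor in all 21 libraries. The other endothelial markers were above the floor but low, and the 3 summed to 49.6 ± 4.02 at d0 and 17.1 ± 2.38 at d20, with PECAM1 as the largest part. CD68 made up most of the 5 immune markers, which summed to 417 ± 6.03 at d0 and 820 ± 15.9 at d4. The third library of d7 stood apart: it differed from the other d7 libraries by 0.472 and 0.457 (root mean square, log2), while pairs of libraries at the other timepoints differed by 0.214 to 0.243. Its basal markers summed to 306919, against 542667 and 510410 in the other d7 libraries, so d7 values are given by library or with the value obtained without it. Libraries of a timepoint are numbered 1 to 3 in column order, in which values are also listed.

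**Figure D1:**
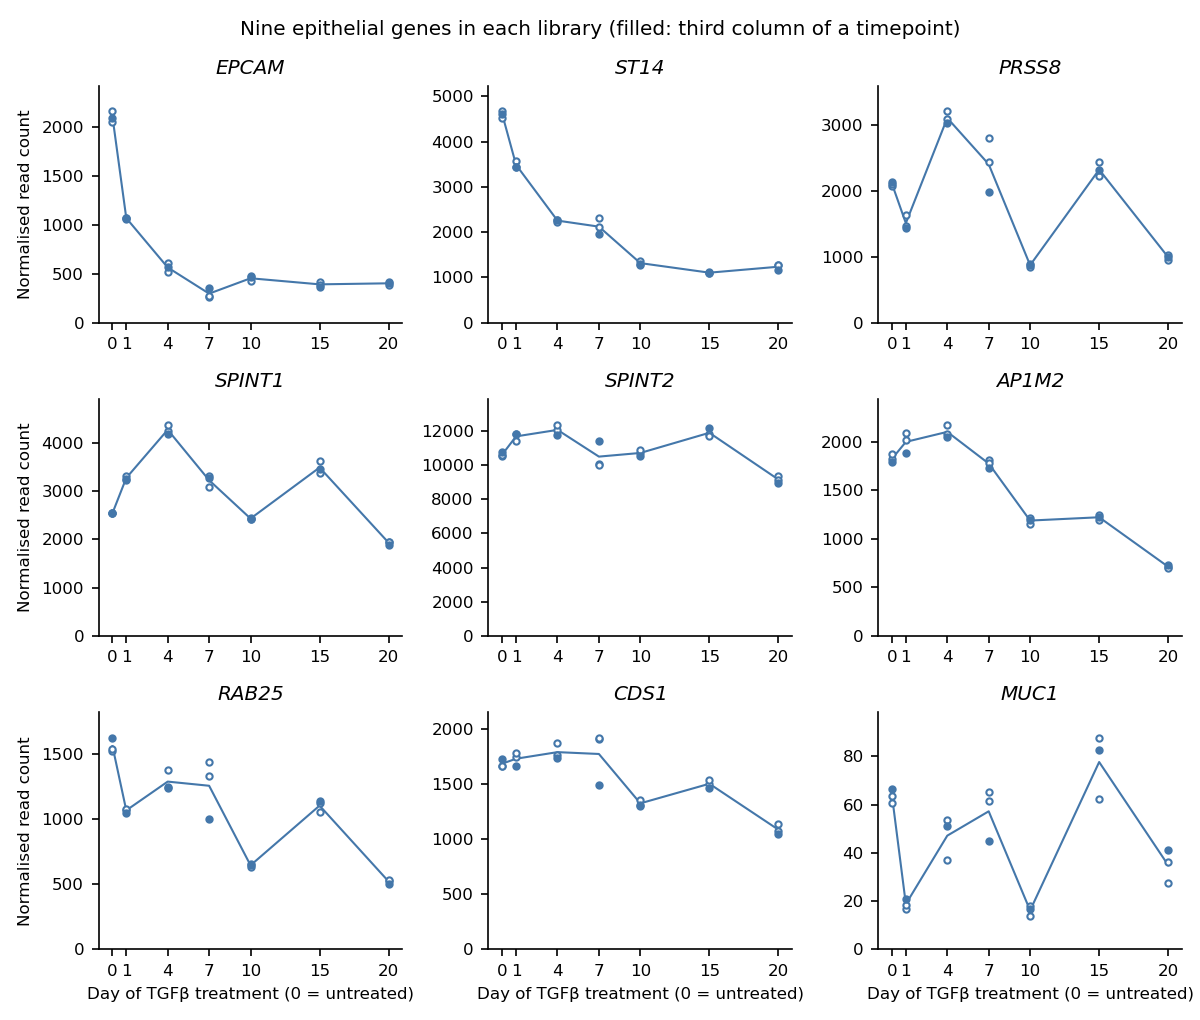
Normalised read count (linear axis from 0) of each of the 9 genes against day of TGFβ, one point per library and a line through the means of 3. EPCAM and ST14 fell and stayed low, PRSS8, RAB25 and MUC1 went down and up more than once, and the third d7 library (filled) lay apart for PRSS8, RAB25 and CDS1.

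At d20 all 9 genes were lower than in untreated cells (adjusted p under 0.05, limma with Benjamini-Hochberg adjustment over 13343 genes), where 30.2% of the genes tested were lower and 32.5% higher. The decrease was at least 2-fold for EPCAM, ST14, PRSS8, AP1M2 and RAB25, 5 of 9, where 4.72% of the genes tested passed the same criterion. Both counts were the same without the third d7 library. The median log2 fold change was -1.08 over the 9 genes and -0.00 over all genes tested. The path to d20 differed from gene to gene. At d1, 5 genes were lower and 3 higher (background 28.5% and 31.3%), and at d4 4 were lower and 4 higher (35.3% and 36.9%). At d7, 3 were lower and 1 higher (32.6% and 34.6%), or 4 and 3 without the third d7 library. At d10, 7 were lower and 0 higher (30.7% and 37.0%). At d15, 5 were lower and 2 higher (37.3% and 39.2%). Decreases of at least 2-fold were seen for MUC1 alone at d1 (background 3.87%), for EPCAM and ST14 at d4 (5.03%), d7 (2.93%) and d15 (8.66%), and for 5 genes at d10 (7.34%), which were EPCAM, ST14, PRSS8, RAB25 and MUC1. Increases over d0 of at least 2-fold were seen for 0 of the 9 genes. That criterion was met by 6.47%, 9.68%, 8.79%, 6.94%, 11.7% and 7.51% of the genes tested on d1, d4, d7, d10, d15 and d20. All 6 days were compared with the same d0 libraries.

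The split between higher and lower depended on the scale. With the authors' scaling the median of all genes moved by at most 0.03 on any day, and 51.1% to 54.6% of the genes called were higher. After rescaling to equal library totals the median of all genes shifted by -0.14 to -0.20 and 26.7% to 39.1% of the called genes were higher. On equal totals 50.2% of the genes tested were lower and 18.3% higher at d1, 47.2% and 30.3% at d15 and 50.8% and 19.9% at d20. The decreases at d20 were called for all 9 genes on either scale, whereas small increases were not all kept, as given with each gene. At d7, 5 genes were lower on equal totals in place of 3, where 49.1% of the genes tested were. Quantile normalisation gave 5 as well (39.5%).

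**Figure D2:**
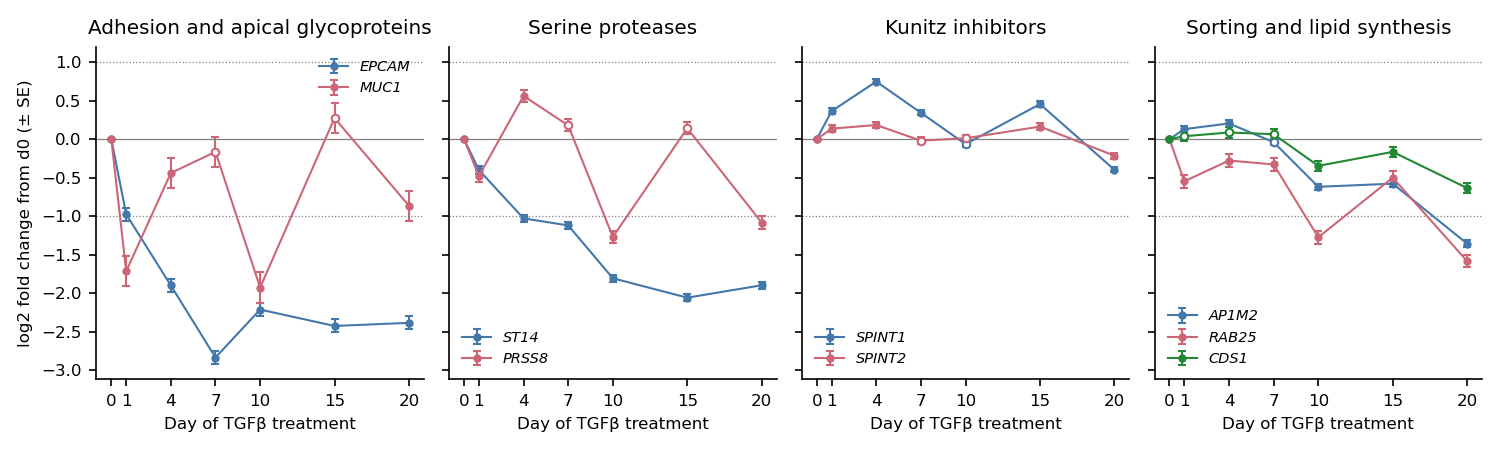
Fitted log2 fold change from d0 with its standard error against day of TGFβ, in 4 groups of genes (open points: adjusted p of 0.05 or more; dotted lines: 2-fold). EPCAM reached its lowest value at d7 and ST14 at d15, and all 9 genes were below 0 at d20. The values of SPINT2 and AP1M2 at d1 became -0.06 and -0.06, and did not pass the test, when libraries were rescaled to the same total.

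EPCAM, the adhesion molecule, fell furthest of the 9 genes at d20. It had 2162, 2058 and 2099 normalised reads in the d0 libraries, 1061, 1074 and 1075 at d1, 609, 520 and 565 at d4 and 263, 273 and 355 at d7. It then had 425, 464 and 473 at d10, 420, 387 and 368 at d15 and 387, 404 and 416 at d20. Every treated library lay below every untreated one, and the d1, d4 and d7 libraries did not overlap with each other. Relative to d0, EPCAM changed by a log2 of -0.98 at d1 (SE 0.084, adjusted p = 2.06e-09), -1.90 at d4 and -2.84 at d7 (adjusted p = 2.17e-17), a 7.14-fold decrease. Between d7 and d10 EPCAM rose by 0.62 on the log2 scale (SE 0.084, adjusted p = 1.15e-06), and it ended at -2.39 (adjusted p = 3.69e-16). From d10 to d15 the change was -0.21 (adjusted p = 0.0256), a call that was lost without any 1 of 4 libraries, namely libraries 2 and 3 of d10 and of d15, with an adjusted p of up to 0.109. It was also lost on equal totals (adjusted p = 0.128) and under quantile normalisation (adjusted p = 0.115). From d15 to d20 EPCAM did not pass the test (log2 fold change 0.04, adjusted p = 0.677).

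Among the proteases, ST14 fell in steps and stayed low. The d0 libraries had 4521, 4668 and 4617 normalised reads, the d1 libraries 3576, 3432 and 3450, the d4 libraries 2257, 2234 and 2273 and the d7 libraries 2308, 2103 and 1953. At d10 there were 1282, 1363 and 1301, at d15 1100, 1099 and 1114 and at d20 1264, 1276 and 1166. All treated libraries were below the untreated ones, and the d4 and d7 libraries were the only neighbouring timepoints that overlapped. Relative to d0, ST14 had a log2 fold change of -0.40 at d1 (SE 0.047, adjusted p = 2.78e-07), -1.03 at d4, -1.81 at d10 and -2.06 at d15 (adjusted p = 2.04e-19), a 4.17-fold decrease. From d15 to d20 ST14 was 0.16 higher (SE 0.047, adjusted p = 0.00447), a call that quantile normalisation ended.

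PRSS8, which encodes the other protease, moved in both directions. It had 2079, 2102 and 2133 normalised reads at d0, 1630, 1462 and 1440 at d1, 3208, 3086 and 3026 at d4 and 2802, 2436 and 1977 at d7. The d10 libraries had 851, 893 and 873, the d15 libraries 2432, 2222 and 2315 and the d20 libraries 1025, 951 and 1004. The d1, d10 and d20 libraries were all below d0 and the d4 and d15 libraries all above it, while d7 overlapped with d0 because of the third d7 library. Against d0 the log2 fold change of PRSS8 was -0.48 at d1 (SE 0.079, adjusted p = 2.17e-05), 0.56 at d4 (adjusted p = 1.73e-06), -1.27 at d10 (adjusted p = 6.29e-12) and -1.08 at d20 (adjusted p = 9.84e-11). At d15 it was 0.14 (adjusted p = 0.107), and it passed the test as higher when only the d0 and d15 libraries were fitted (adjusted p = 0.00149) or without the third d7 library (adjusted p = 0.00465). At d7 it was 0.18 (adjusted p = 0.0515), or 0.31 without the third library (adjusted p = 8.36e-07). With libraries rescaled to the same total the values at d7 and d15 were -0.01 and -0.02. Between neighbouring timepoints PRSS8 rose 2.06-fold from d1 to d4, fell 2.73-fold from d7 to d10, rose 2.66-fold from d10 to d15 and fell 2.34-fold from d15 to d20, and all of these changes were called.

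The inhibitors took another course from ST14. SPINT1, which encodes HAI-1, had 2539, 2556 and 2539 normalised reads at d0, 3323, 3260 and 3240 at d1, and 4242, 4381 and 4195 at d4. The d7 libraries had 3323, 3083 and 3275 and the d10 libraries 2421, 2448 and 2427, followed by 3634, 3368 and 3469 at d15 and 1956, 1949 and 1889 at d20. All libraries of d1, d4, d7 and d15 lay above d0 and all libraries of d20 below it. SPINT1 was 1.68-fold higher at d4 (log2 fold change 0.75, SE 0.035, adjusted p = 4.13e-14) and 1.37-fold higher at d15 (0.45, adjusted p = 1.14e-10), and lower at d20 (-0.40, adjusted p = 2.13e-09). At d10 the value was -0.07 (adjusted p = 0.103), and it passed the test as lower under edgeR, total rescaling and quantile normalisation.

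SPINT2, which encodes HAI-2, was the most abundant of the 9 genes and varied least, between 8937 and 12380 normalised reads in all 21 libraries. At d20 its libraries had 9385, 9156 and 8937, below the 10518, 10618 and 10757 of d0, and the log2 fold change was -0.22 (SE 0.041, adjusted p = 0.000115). It was higher by 0.14 at d1 (adjusted p = 0.00718), 0.18 at d4 (adjusted p = 0.000477) and 0.16 at d15 (adjusted p = 0.00127), but these became -0.06, -0.01 and 0.00 when libraries were rescaled to the same total. Under quantile normalisation SPINT2 passed the test as lower at d1 (-0.09, adjusted p = 0.0401). Without the third d7 library, which had 11428 against 10074 and 10009, SPINT2 was 0.08 lower at d7 (adjusted p = 0.0136), and -0.02 with it (adjusted p = 0.682). With all libraries SPINT2 passed the test as lower at d7 on equal totals (-0.21, adjusted p = 0.000185) and under quantile normalisation (-0.17, adjusted p = 0.000439). The same held at d10 (-0.22 and -0.27), where the value was 0.01 on the authors' scale (adjusted p = 0.816).

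Protease and inhibitor were therefore set against each other within each library, as a description. The ratio of ST14 to SPINT1 was 1.81 ± 0.024 at d0, 1.06 ± 0.012 at d1, 0.528 ± 0.016 at d4, 0.317 ± 0.012 at d15 and 0.639 ± 0.020 at d20 (SD, n = 3). It was below every untreated library in 18 of 18 treated libraries, and so was the ratio of ST14 to SPINT2, which went from 0.433 ± 0.0059 at d0 to 0.093 ± 0.0013 at d15. The ratio of PRSS8 to SPINT1 was 0.827 ± 0.012 at d0, 0.461 ± 0.026 at d1, 0.727 ± 0.026 at d4, 0.359 ± 0.0068 at d10 and 0.665 ± 0.0050 at d15. It lay below every untreated library in 17 of 18 treated libraries, and the exception was the first d7 library. The ratio of PRSS8 to SPINT2 was below all untreated libraries in 12 of 18 treated libraries and above them in 6.

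**Figure D3:**
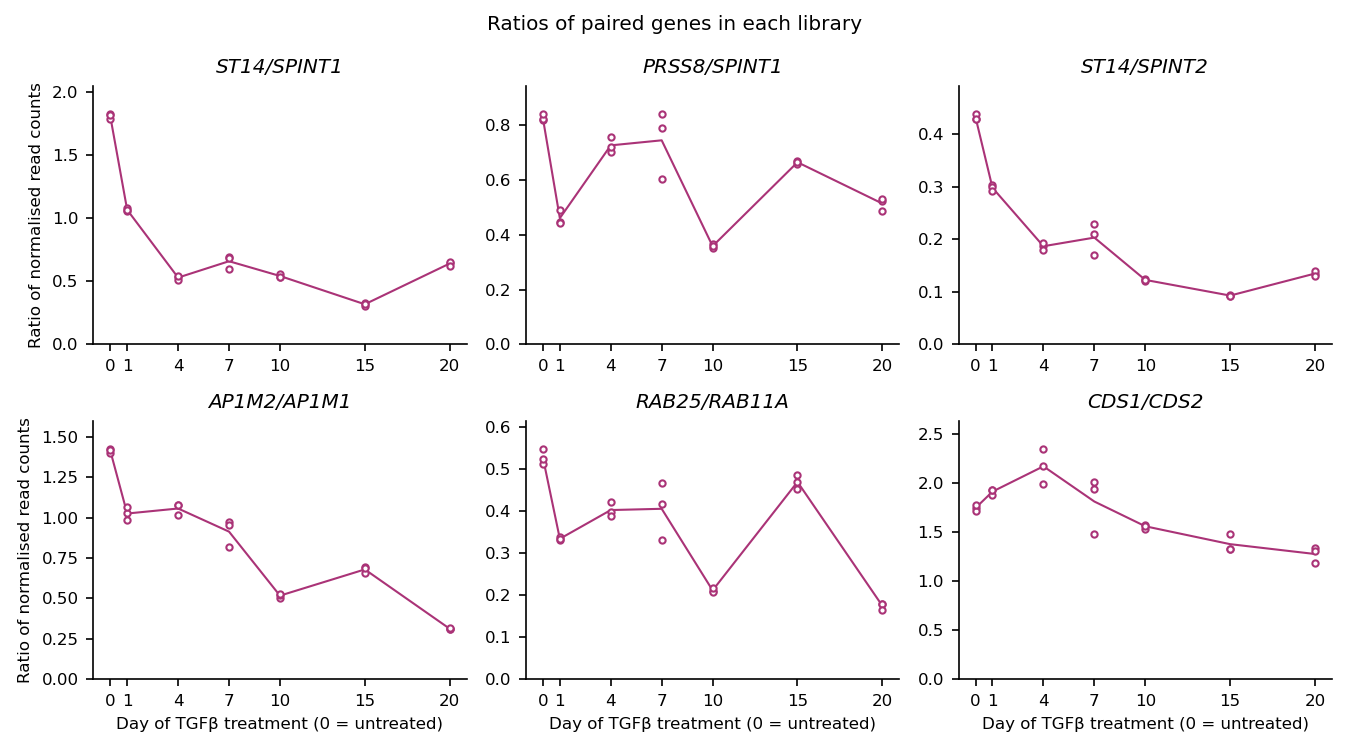
Ratio of the normalised read counts of paired genes (linear axes from 0) against day of TGFβ, one point per library and a line through the means. ST14/SPINT1, ST14/SPINT2, AP1M2/AP1M1 and RAB25/RAB11A were below d0 in all 18 treated libraries, whereas CDS1/CDS2 was above d0 in 8 and below it in 10.

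Of the further protease genes, a list of 26 channel subunits, receptors, type II transmembrane proteases, other inhibitors and HGF-pathway genes, 17 were tested. At d20, 9 were lower and 6 higher, where 30.2% and 32.5% of all genes tested were, with a median log2 fold change of -0.60 against -0.00 over all genes. At d1 the counts were 7 and 7 (median -0.33, background 28.5% and 31.3%) and at d15 8 and 8 (median 0.23, background 37.3% and 39.2%). HGF, HPN, SPINT3, SPINT4, TMPRSS11D and TMPRSS2 were at the floor in every library. SERPINE2, a secreted serine protease inhibitor also known as protease nexin-1, had 147 normalised reads at d0, 3283 at d1 and 3680 at d20 (log2 fold change 4.64 at d20, SE 0.047, adjusted p = 1.93e-25). SCNN1G, the gamma subunit of the epithelial sodium channel, had 144 at d0, 12.9 at d1, 249 at d15 and 10.4 at d20 (log2 fold change -3.71 at d20, SE 0.403, adjusted p = 6.33e-08), and at d15 its value was 0.80 (SE 0.403, adjusted p = 0.0780). The d15 libraries, with 248, 257 and 241, lay above the 166, 142 and 123 of d0, while the d7 libraries had 154, 141 and 33.5. The d15 change passed the test as higher without the third d7 library (SE 0.230, adjusted p = 0.00197). It also passed with a pseudocount of 10 (adjusted p = 0.0315), in edgeR (0.0120) and with only the d0 and d15 libraries fitted (2.41e-07). It did not pass on equal totals (0.153), under quantile normalisation (0.0692), in DESeq2 (0.0652) or without the filter on low values (0.112). Nor did it pass without any 1 library of d0 or d15 (adjusted p up to 0.187).

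The channel's other subunits and further proteases were chosen for naming after their values had been seen. SCNN1A, the alpha subunit, fell by 1.07 on the log2 scale at d1 and by 2.23 at d20. SCNN1B, the beta subunit, had 45.9 normalised reads at d0 and was at the floor in all d20 libraries, at least 14.9-fold lower against a floor of 3 reads per library. The transmembrane proteases TMPRSS4 and TMPRSS13 fell by 3.66 and 3.30 at d20. PRSS23 was higher at d20, with a log2 fold change of 2.53, and so were MET, the receptor of hepatocyte growth factor, at 0.56 and F2RL1, the protease-activated receptor PAR2, at 0.48.

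MUC1 had few reads, between 14 and 86 per library, which limits the precision of its values. The d0 libraries had 60.5, 63.6 and 66.3 normalised reads, the d1 libraries 16.7, 18.5 and 20.8, the d4 libraries 36.8, 53.6 and 50.9 and the d7 libraries 65.4, 61.5 and 44.7. At d10 there were 17.9, 13.6 and 16.6, at d15 87.7, 62.4 and 82.9 and at d20 36.0, 27.4 and 41.1. The d1, d4, d10 and d20 libraries were all below d0, those of d7 and d15 overlapped with it, and d1 and d10 were the timepoints with the lowest values. MUC1 had a log2 fold change of -1.72 at d1 (SE 0.195, adjusted p = 1.57e-07), -1.93 at d10 (adjusted p = 1.90e-08) and -0.87 at d20 (adjusted p = 0.000622). MUC1 rose 4.59-fold from d10 to d15 (log2 fold change 2.20, adjusted p = 1.22e-09) and fell 2.20-fold from d15 to d20 (adjusted p = 2.24e-05). At d4 it was 0.44 lower with an adjusted p of 0.0490, and the call was lost in DESeq2, without the filter on low values, and in 5 of the 6 fits that left out a library of d0 or d4.

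Of a list of 21 other mucins, glycosylation genes and the galectin LGALS3, 19 were in the table and 9 were tested. MUC20 was the only mucin among those tested. MUC13, MUC2, MUC4, MUC5B, MUC6 and MUCL1 were at the floor in every library. At d1, 1 gene was lower and 5 higher (median 0.50, background 28.5% and 31.3%), at d15 1 and 6 (median 0.32, 37.3% and 39.2%), and at d20 4 and 4 (median -0.01, 30.2% and 32.5%). On equal totals 3 of the 9 were lower at d1 and 2 at d15, where 50.2% and 47.2% of all genes were. ST3GAL1, a sialyltransferase that caps core 1 O-glycans, had 211 normalised reads at d0 and 529 at d20 (log2 fold change 1.32, SE 0.078, adjusted p = 2.70e-12). GALNT6, which starts O-glycosylation, had 961 at d0 and 2073 at d20 (1.11, SE 0.065, adjusted p = 2.52e-12).

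With the authors' scaling, the intracellular genes AP1M2 and CDS1 were first called lower at d10. AP1M2 had 1816, 1869 and 1788 normalised reads at d0, 2092, 2018 and 1883 at d1, 2176, 2076 and 2050 at d4 and 1814, 1781 and 1730 at d7. It had 1154, 1218 and 1190 at d10, 1197, 1246 and 1221 at d15 and 707, 699 and 730 at d20. The d1 and d4 libraries were above d0, d7 overlapped with it, and those of d10, d15 and d20 below it. The log2 fold change was -0.62 at d10 (SE 0.041, adjusted p = 2.05e-11) and -1.36 at d20 (adjusted p = 2.75e-17), a 2.56-fold decrease. The earlier values of 0.13 at d1 (adjusted p = 0.0101) and 0.20 at d4 (adjusted p = 0.000160) became -0.06 and 0.01 after rescaling to the same total, and neither passed the test there. The d1 call was also lost without the first d1 library (adjusted p = 0.0735). At d7 AP1M2 did not pass the test (-0.04, adjusted p = 0.409). It was called lower there on equal totals (-0.23, adjusted p = 2.43e-05) and under quantile normalisation (-0.12, adjusted p = 0.0180).

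AP1M1, the ubiquitous μ1A counterpart of AP1M2, was higher at d20, where AP1M2 was lower. It had 1288 normalised reads at d0 and 2283 at d20, and its log2 fold change was 0.60 at d1 (adjusted p = 1.90e-10) and 0.83 at d20 (SE 0.044, adjusted p = 5.78e-13). The ratio of AP1M2 to AP1M1 was 1.42 ± 0.013 at d0, 1.03 ± 0.040 at d1, 0.517 ± 0.014 at d10 and 0.312 ± 0.0058 at d20. It was below every untreated library in 18 of 18 treated libraries, with a mean log2 difference of -1.04.

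RAB25 had 1518, 1534 and 1623 normalised reads at d0, 1071, 1079 and 1046 at d1, 1374, 1239 and 1246 at d4 and 1433, 1329 and 1001 at d7. The d10 libraries had 653, 633 and 644, the d15 libraries 1119, 1050 and 1136 and the d20 libraries 526, 533 and 499. All treated libraries were below d0, the lowest at d20, and d15 lay above both d10 and d20. The log2 fold change was -0.55 at d1 (SE 0.083, adjusted p = 8.16e-06), -1.27 at d10 (adjusted p = 1.42e-11) and -1.58 at d20 (adjusted p = 3.66e-13), and the change from d10 to d15 was 0.77 (adjusted p = 2.39e-08). At d7 it was -0.33 (adjusted p = 0.00151), or -0.17 without the third d7 library (adjusted p = 0.00267). The d7 call was lost when only the d0 and d7 libraries were fitted (adjusted p = 0.0551).

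RAB11A, the widely expressed relative of RAB25, had 2957 normalised reads at d0 and 2979 at d20, with a log2 fold change of 0.01 (adjusted p = 0.792) that became -0.19 after rescaling to the same total and -0.13 after quantile normalisation. RAB11B had 1382 and 1901, with a log2 fold change of 0.46 at d20 (SE 0.050, adjusted p = 6.07e-08). The ratio of RAB25 to RAB11A was 0.528 ± 0.019 at d0, 0.334 ± 0.0031 at d1, 0.469 ± 0.017 at d15 and 0.174 ± 0.0077 at d20. It was lower in 18 of 18 treated libraries than in every untreated one, with a mean log2 difference of -0.75.

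CDS1 had 1660, 1666 and 1725 normalised reads at d0, 1746, 1777 and 1662 at d1, 1871, 1762 and 1731 at d4 and 1906, 1918 and 1490 at d7. It had 1355, 1312 and 1302 at d10, 1503, 1535 and 1466 at d15 and 1071, 1138 and 1044 at d20. The d1 and d7 libraries overlapped with d0, those of d4 were above it and those of d10, d15 and d20 below it. The log2 fold change was -0.35 at d10 (SE 0.066, adjusted p = 9.49e-05), -0.17 at d15 (adjusted p = 0.0289) and -0.64 at d20 (adjusted p = 3.51e-08), and the d15 call was lost without d0 library 3 (adjusted p = 0.0867) or without d15 library 1 or 3 (adjusted p = 0.0570 and 0.0854). At d1, d4 and d7 CDS1 did not pass the test (0.04, 0.09 and 0.06). Without the third d7 library it was 0.18 higher at d7 (adjusted p = 0.000283) and passed as higher at d4 (adjusted p = 0.0432). On equal totals the d1, d4 and d7 values became -0.16, -0.11 and -0.13, and d1 passed the test as lower (adjusted p = 0.0347). CDS2, its relative, had 963 at d0 and 850 at d20 (-0.18, SE 0.049, adjusted p = 0.00285). The ratio of CDS1 to CDS2 went from 1.75 ± 0.031 at d0 to 2.17 ± 0.18 at d4 and 1.28 ± 0.083 at d20. It was above every untreated library in 8 of 18 treated libraries and below every one in 10.

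Other genes of polarised sorting, EpCAM partners and phosphatidylinositol synthesis were counted for context, beside a background of 30.2% lower and 32.5% higher at d20, 37.3% and 39.2% at d15 and 28.5% and 31.3% at d1. Of the 20 sorting genes, 4 were lower and 9 higher at d20 (median 0.08, against -0.00 over all genes), 10 and 8 at d15 (median -0.09) and 4 and 11 at d1 (median 0.19). On equal totals 9 were lower and 5 higher at d20, where 50.8% and 19.9% of all genes were, and 8 and 6 at d1, where 50.2% and 18.3% were. MAL2, a membrane protein of transcytosis to the apical surface, had 4255 normalised reads at d0 and 381 at d20 (-3.48, SE 0.080, adjusted p = 2.12e-19), and AP1S3, a small subunit of AP-1, had 659 and 135 (-2.29, SE 0.200, adjusted p = 2.09e-09). Of 15 EpCAM partners, which are claudins, tetraspanins, cleavage enzymes and signalling partners, 14 were tested, with 4 lower and 4 higher at d20 (median 0.05), 5 and 7 at d15 (median 0.08) and 3 and 4 at d1 (median 0.04). On equal totals 8 of the 14 were lower and 2 higher at d20, and 7 were lower at d1, beside the same 50.8%, 19.9% and 50.2% of all genes. On that scale 3 of the 14 were higher at d15, where 30.3% of all genes were. CLDN1, a tight junction claudin, had 1253 at d0 and 222 at d20 (-2.49, SE 0.319, adjusted p = 7.19e-07). Of 11 genes of CDP-diacylglycerol and phosphatidylinositol synthesis, 2 were lower and 3 higher at d20 (median 0.04), 3 and 6 at d15 (median 0.18) and 3 and 4 at d1 (median 0.07). On equal totals 7 of the 11 were lower at d20 (50.8% of all genes), and 6 were lower and 0 higher at d1 (50.2% and 18.3%). At d15, 3 of the 11 were higher on that scale (30.3% of all genes). Among the 11 genes PGS1, which makes phosphatidylglycerophosphate, had a log2 fold change of 0.52 at d20 (SE 0.070, adjusted p = 1.38e-06). For PIP5K1C, which makes phosphatidylinositol 4,5-bisphosphate, it was 0.45 (SE 0.057, adjusted p = 5.14e-07).

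**Figure D4:**
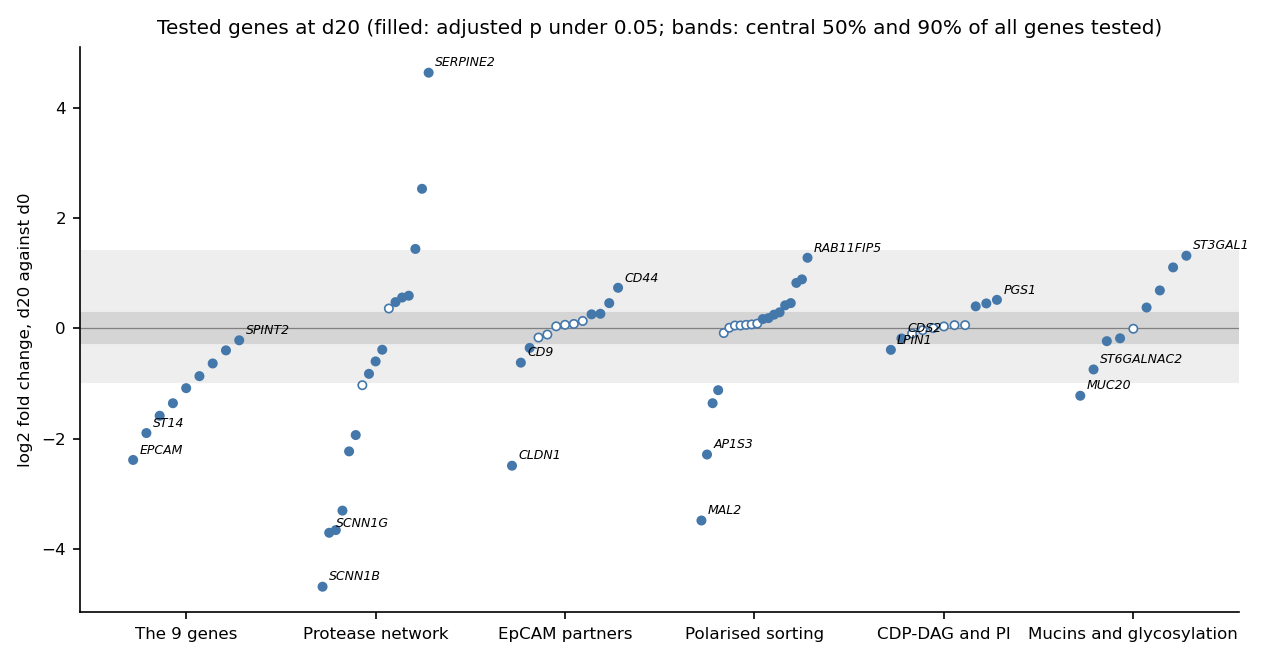
Log2 fold change at d20 against d0 (linear axis) for tested genes of each list (1 EpCAM partner is not drawn), with filled points for an adjusted p under 0.05 and bands for the central 50% and 90% of all genes tested. All 9 genes lay below 0, while the other lists held genes on both sides. SCNN1B was at the floor at d20, so its point is a fitted value and not a measured size.

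Between neighbouring timepoints EPCAM, ST14 or both moved against most of the other called genes at some steps. From d7 to d10, 7 genes fell and EPCAM was the only 1 that rose (background 35.2% lower and 36.2% higher). Without the third d7 library SPINT2 rose as well (0.09, adjusted p = 0.00481), which made 2. Under quantile normalisation SPINT2 instead fell (-0.10, adjusted p = 0.0175), and on equal totals it did not pass the test (-0.0042, adjusted p = 0.936). From d10 to d15, 6 genes rose and EPCAM and ST14 fell (39.3% higher and 40.5% lower). The EPCAM call was not kept on equal totals or under quantile normalisation. From d15 to d20, 7 fell and ST14 rose (36.3% and 37.7%), a rise that did not pass the test under quantile normalisation (adjusted p = 0.109). The 2 earlier steps gave 2 lower and 4 higher from d1 to d4 (32.0% and 32.9%) and 5 lower and 0 higher from d4 to d7 (25.5% each). Neighbouring steps share a timepoint, so these counts are not independent of one another.

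As a sum, proliferation markers moved over the same days. The sum of MKI67, TOP2A, CCNB1, PCNA and MCM2 was 43345 ± 792 at d0, 33781 ± 833 on d1, 25713 ± 560 on d4, 37986 ± 578 on d10, 14724 ± 126 on d15 and 42710 ± 720 on d20 (SD, n = 3), and 30261, 30601 and 39642 in the d7 libraries. TOP2A was the most abundant of them at every timepoint. Each of these markers was called lower at d4, d7 and d15, with the third d7 library in the fit. For MKI67 the d7 libraries overlapped with those of d0 (adjusted p = 0.0119, limma). No d7 value without the third library is given for single markers. MKI67 and PCNA did not pass the test at d1 (adjusted p = 0.290 and 0.200). At d10 only TOP2A was called, as lower (log2 fold change -0.46). At d20 only PCNA and MCM2 were called, as lower (-0.40 and -0.55). The sum was lowest at d15 and d4, where it stood at 34.0% and 59.3% of d0. On d1, d4, d10, d15 and d20 PRSS8 was at 71.8%, 148%, 41.5%, 110% and 47.2% of its d0 mean, and SPINT1 at 129%, 168%, 95.6%, 137% and 75.9%. At d1 the marker sum was at 77.9% of d0, and PRSS8, RAB25 (68.4%) and MUC1 (29.4%) were lower along with it. Among the d7 libraries the third had the highest sum and the lowest PRSS8, RAB25, CDS1 and MUC1, and also the lowest ST14 and AP1M2 and the highest EPCAM and SPINT2. RAB25 and MUC1 were at 82.5% and 74.2% on d4, and at 70.7% and 122% on d15. The part of proliferation in these values was not tested, nor was that of density or passaging. In a bulk library fewer epithelial cells and less RNA per cell cannot be told apart.

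**Figure D5:**
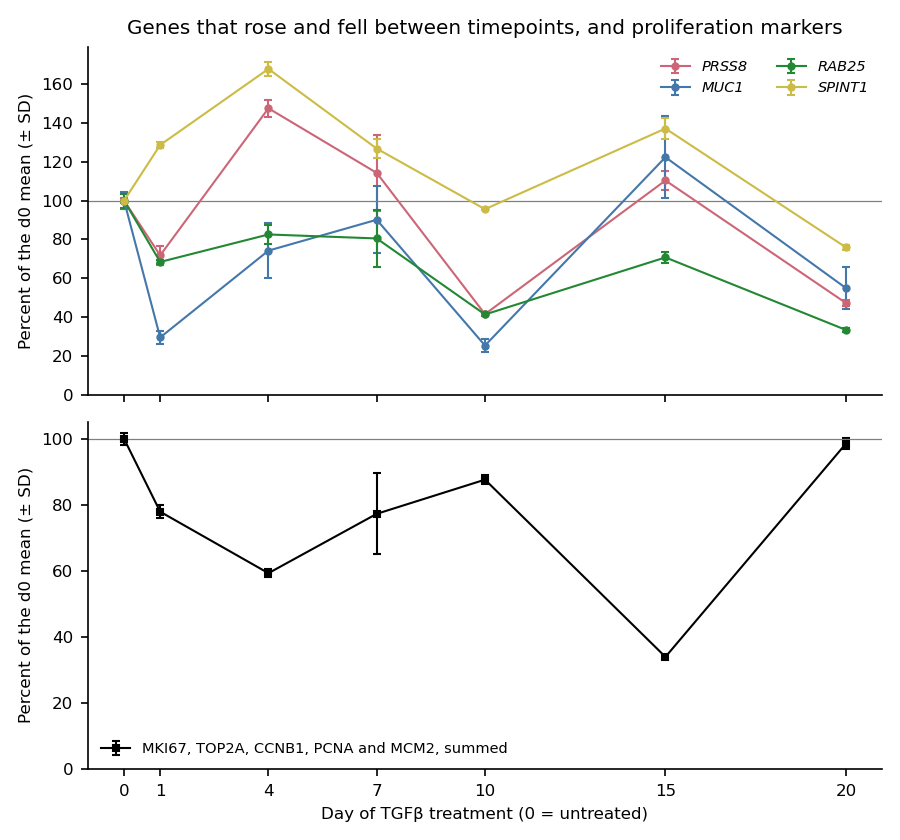
Mean percent of the d0 value with SD over 3 libraries (linear axes from 0) against day of TGFβ, for PRSS8, MUC1, RAB25 and SPINT1 (upper panel) and for the sum of 5 proliferation markers (lower panel). The 4 genes rose from d10 to d15 and fell to d20, while the marker sum had its lowest value, 34.0%, at d15.

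Relations among the 9 genes followed these courses. Over the 21 libraries, Pearson's r of log2 values was 0.94 for AP1M2 and CDS1, 0.91 for RAB25 and CDS1, 0.87 for PRSS8 and RAB25, 0.86 for SPINT1 and SPINT2 and 0.83 for EPCAM and ST14. It was -0.05 for EPCAM and SPINT1 and 0.20 for ST14 and SPINT1. The libraries form 7 timepoints of 3, so these values describe the time course and carry no p. Among 5227 genes whose means span at least 2-fold, those most like each member were PLEKHH1 (r = 0.96) for EPCAM, S100A9 (0.96) for ST14, SERPINA3 (0.98) for PRSS8, GPR56 (0.95) for SPINT1, IRX4 (0.96) for AP1M2, ITGB8 (0.98) for RAB25, TFCP2L1 (0.95) for CDS1 and SSBP2 (0.96) for MUC1. For SPINT2 it was SPINT1 (0.86). Second in rank were GCH1 (0.94) for EPCAM, PTAFR (0.96) for ST14, LRP11 (0.98) for PRSS8 and DHRS3 (0.94) for SPINT1. For SPINT2, AP1M2, CDS1 and MUC1 they were CCDC149 (0.85), S100A14 (0.96), AP1M2 (0.94) and PRODH (0.96). SERPINA3, a serine protease inhibitor of the serpin family, had 672 normalised reads at d0, 348 at d1, 1918 at d4, 139 at d10, 1395 at d15 and 153 at d20. FXYD3, which ranked second for RAB25 (r = 0.98) and encodes a regulator of the sodium pump, went from 2732 at d0 to 441 on d10, 1376 on d15 and 407 on d20.

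The order of the 9 genes changed with treatment. Per kilobase of the longest transcript, the mean level at d0 was 2793 for SPINT2, 1404 for RAB25, 1300 for ST14, 1222 for EPCAM, 1124 for PRSS8, 1038 for AP1M2, 833 for SPINT1, 377 for CDS1 and 15.2 for MUC1. At d20 it was 2406 for SPINT2, 632 for SPINT1, 531 for PRSS8, 468 for RAB25, 405 for AP1M2, 349 for ST14, 243 for CDS1, 233 for EPCAM and 8.36 for MUC1. On this scale both inhibitors were above both proteases at d20, while SPINT1 was below them at d0. The order of PRSS8 and SPINT1 depended on the division by length (1.87 and 3.06 kilobases). In normalised reads SPINT1 had the higher mean at every timepoint. There the ratio of PRSS8 to SPINT1 was 0.827 at d0, 0.727 at d4 and 0.665 at d15. Per kilobase the order went back and forth in between. PRSS8 was above SPINT1 at d4 (1659 against 1398) and d15 (1241 against 1142) and below it at d1 and d10. At d7 the means were 1285 for PRSS8, with 1056 in the third library, and 1056 for SPINT1.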

How the data were processed

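RNA-seq of 21 HMLE libraries (7 timepoints, 3 each, described by the study as biological triplicates) was used. The authors deposited a normalized signal per gene symbol, a whole number of reads divided by 1 factor per library. Per the submitters' processing notes, STAR 2.7, Salmon 1.4 and hg19 were used. Their settings, the annotation and how the factors were made are not given in the sources used here. Columns were assigned to timepoints by name, carry no replicate numbers, and are called libraries 1 to 3 in column order.

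The 13343 genes with a mean signal of at least 10 were tested on log2(signal + 1) with limma 3.58.1 in R 4.3.3, all timepoints in 1 fit, each day against d0 and neighbouring timepoints, with Benjamini-Hochberg adjustment per comparison. Fold changes are on the log2(signal + 1) scale. P-values measure the spread between these libraries. Multiplied back to reads, values up to 1000 reads were whole within 0.01 in all 21 libraries. The floor of 3 reads covers counting error only, whereas SDs and SEs measure the spread between libraries. Ratios of relatives and of proteases to inhibitors are descriptions. Permutation tests over single libraries had been planned for 4 ratios of relatives (1 is not reported here), but treated libraries come from 6 different days and untreated ones from 1, so no p is given. Lengths came from GENCODE 29.

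Alternatives were a pseudocount of 10, no filter (19546 genes), rescaling to equal totals, quantile normalisation, only the compared groups in the fit, edgeR 4.0.16 and DESeq2 1.42.0 on recovered reads, and each library left out. The fit without the d7 library 3 for comparisons outside d7 was added after seeing the data. Besides the 9 genes and their relatives (AP1M1, RAB11A, RAB11B, CDS2), the rule named 2 genes of each list by their change at d20, with a mean of 50 or more,, and 2 genes most like each member by r. The members and lists were chosen with earlier results of these data known. The limma, edgeR and DESeq2 fits were tried on simulated data, for d20 against d0 and changed genes with a mean of 50 or more. The other steps were not tried in this way. Figures were drawn with matplotlib 3.10.9.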

Additional observations from a re-analysis of the deposited data

Results flagged for a closer look

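Some genes passed the test in both directions against d0, and the difference between the highest and the lowest of these days was computed as a log2 difference. It was 1.83 for PRSS8 (d4 against d10), 1.56 for AP1M2 (d4 against d20), 1.15 for SPINT1 (d4 against d20) and 0.40 for SPINT2 (d4 against d20). Among relatives of the 9 genes it was 0.44 for RAB11A (d4 against d15) and 0.40 for CDS2 (d15 against d4). The higher days of SPINT2 and AP1M2 did not pass the test after rescaling to the same total. With 3 libraries a timepoint, single genes were not screened for outlying libraries.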

How the results depend on the processing

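No paired analysis was possible because no replicate number is given in the column names. Of 2551 alternative values, 2431 kept their direction and side of the threshold, or a count within 1.5 times. All 9 genes were called lower at d20 under every alternative run, and 5 of them by at least 2-fold, or 6 on equal totals. Rescaling to equal totals raised the genes lower at d1 by at least 2-fold from 1 to 2 and those lower at d7 from 3 to 5, and cut those higher at d1 from 3 to 1, at d4 from 4 to 2 and at d15 from 2 to 1, and those lower from d10 to d15 from 2 to 1. Quantile normalisation gave the same 6 counts (2, 5, 1, 2, 1 and 1) and 0 genes higher from d15 to d20 in place of 1, and DESeq2 gave 2 higher at d7 in place of 1. On equal totals EpCAM partners had 7 lower at d1, 3 higher at d15, and 8 lower and 2 higher at d20. Sorting genes had 8 lower and 6 higher at d1, and 9 lower and 5 higher at d20. Phosphatidylinositol genes had 6 lower and 0 higher at d1 (5 lower under quantile normalisation), 3 higher at d15 and 7 lower at d20. The list of mucins and glycosylation genes had 3 lower at d1 (2 under quantile normalisation and without a filter) and 2 lower at d15 (3 without a filter). The changes of sign on equal totals come with the shift of all genes.

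Signs reversed on equal totals for EPCAM from d15 to d20 (-0.00034), PRSS8 at d7 (-0.013) and d15 (-0.018), SPINT2 at d1 (-0.057), d4 (-0.014), d10 (-0.22) and from d7 to d10 (-0.0042), AP1M2 at d1 (-0.064), CDS1 at d1 (-0.16), d4 (-0.11) and d7 (-0.13) and RAB11A at d20 (-0.19). Under quantile normalisation they reversed for SPINT2 at d1 (-0.092), d10 (-0.27) and from d7 to d10 (-0.10), AP1M2 at d1 (-0.0014), CDS1 at d1 (-0.070), d4 (-0.00032) and from d4 to d7 (0.010) and RAB11A at d20 (-0.13). Under edgeR they reversed for SPINT2 at d10 (-0.026), CDS1 from d4 to d7 (0.00076) and RAB11A at d20 (-0.012). Of these, SPINT2 and RAB11A at d10 and d20 respectively passed the test as lower on both scales, CDS1 at d1 on equal totals (adjusted p = 0.0347), and SPINT2 at d1 (0.0401) and from d7 to d10 (0.0175) under quantile normalisation. The cause of the quantile and edgeR changes was not tested.

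Leaving out 1 library at a time gave 1 to 3 genes higher at d7, 1 to 2 higher from d7 to d10 and 1 to 2 lower from d10 to d15. The log2 fold change ranged from -0.0041 to 0.092 for EPCAM from d15 to d20, from -0.082 to 0.013 for SPINT2 at d7, from -0.00060 to 0.022 for SPINT2 at d10 and from -0.0018 to 0.094 for SPINT2 from d7 to d10. It ranged from -0.16 to 0.10 for RAB25 and from -0.085 to 0.097 for CDS1 from d4 to d7, from -0.27 to 0.00023 for MUC1 at d7 and from -0.035 to 0.048 for RAB11A at d20. The log2 difference of RAB25/RAB11A ranged from -0.79 to -0.70. Without the third d7 library, an alternative chosen after seeing the data, the comparisons outside d7 kept 9 genes lower at d20, and PRSS8 passed the test as higher at d15 (adjusted p = 0.00465) and CDS1 as higher at d4 (adjusted p = 0.0432). MUC1, with 14 to 86 reads, is limited by depth, and differences between d1 and d10 in it were not tested. With 3 libraries a timepoint, an exact permutation test of 1 day cannot go below 0.1, so days rest on limma's shared estimate of the spread.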
